A study of Mus musculus with 5 samples.

Results

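In the mouse stromal line MS5, established from bone marrow, 1237 sites kept a listed p300 peak in both treatments and carried a c-Jun peak only in the library with pioglitazone. They were selected on the peaks of 4 deposited lists. All peaks were merged into sites where they overlapped by at least 1 bp. A site was kept if it held a p300 peak with pioglitazone, a p300 peak without it and a c-Jun peak with it, and no c-Jun peak without it. Merging gave 44718 sites in all, so these sites were 2.77% of them (exact 95% interval 2.62 to 2.92).

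The 4 groups were p300 ChIP-seq from cells given TGF-β1 (10 ng/mL) and pioglitazone (20 ng/mL), c-Jun ChIP-seq from cells given the same, p300 ChIP-seq from cells given TGF-β1 alone, and c-Jun ChIP-seq from cells given TGF-β1 alone. Every treatment lasted 5 h and every culture was at passage 11. All 4 groups shared TGF-β1, and no group lacked it, so "without pioglitazone" means TGF-β1 alone throughout. Each group was 1 library of 1 cell line, so no difference between treatments has a replicate check and no p-value is given. A further sample, a pooled input, was not analysed here.

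p300 is a histone acetyltransferase and coactivator that is recruited by transcription factors to active enhancers and promoters. c-Jun pairs with Fos, ATF or other Jun proteins to form AP-1, a factor that TGF-β and stress signalling activate in fibroblasts and that works with SMAD proteins at many TGF-β targets. Pioglitazone is a thiazolidinedione ligand of PPARγ, a nuclear receptor known to oppose fibroblast activation and to direct stromal cells towards fat. The site class described here asks where c-Jun was newly listed on chromatin that p300 occupied under both treatments.

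The lists held 21994 p300 peaks and 13325 c-Jun peaks with pioglitazone, and 31466 p300 peaks and 17044 c-Jun peaks without it. The deposited score was 1 for every peak, so the files give no peak height, and sequencing depth is unknown. Row order in each list is used as a position, from 0% at the first row to 100% at the last. No source used here states what the rows were sorted by. By row in both p300 lists and in the c-Jun list with pioglitazone, the sites of the class ran repeatedly through the chromosomes in order. Rows close to each other were thus ordered at least partly by chromosome. Small differences in row or position, including small shifts between the p300 lists, may carry this order and need not reflect peak strength. Its effect on the results was not tested. Intervals are exact binomial intervals unless another kind is named, and all cover counting error only. Coordinates are mm9, counted from 1. No sequence or annotation of mm9 was used, so sites are named by position and carry no gene names or sequences.

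Of the 16216 sites with p300 in both treatments, 7.63% (7.22 to 8.05) were sites of this class. Among the 7238 sites that kept p300 and had no c-Jun peak without pioglitazone, c-Jun was newly listed at 17.1% (16.2 to 17.98). Over all 44718 merged sites, 5433 had c-Jun with pioglitazone and not without it, a background of 12.1%. Of these 44718, 17044 already had c-Jun without pioglitazone and could not gain it. Over the 24575 sites with p300 in either treatment and no c-Jun without pioglitazone, the background was 9.5%. Over all 27674 sites with no c-Jun without pioglitazone, which include those listed for c-Jun alone, it was 19.6%. The rule used this contrast, so the shares describe the lists and test nothing. The share was 6.18% (5.53 to 6.87) of 5068 sites with p300 only with pioglitazone and 6.39% (5.96 to 6.84) of 12269 sites with p300 only without it. These classes were not matched on p300 position, with which the gain share at sites that kept p300 changed (below).

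The opposite pattern was larger in number. c-Jun was lost from 3216 sites that kept p300, which is 35.8% (34.8 to 36.8) of the 8978 such sites with c-Jun without pioglitazone, and both factors stayed listed at 5762. The background of loss on the matched denominator was higher, at 53.7% (9152 of all 17044 sites with c-Jun without pioglitazone), and at 43.8% (5549 of 12667) where p300 was listed in either treatment. Those 9152 sites were 20.5% of all merged sites, most of which had no c-Jun to lose. The c-Jun list with pioglitazone is the shorter of the pair. With both lists of each antibody at equal length, the class held 1438 sites and the gain share was 21.4%, while the loss share was 31.7%. Limiting all lists to their upper 50% left 574 sites, and limiting the c-Jun list with pioglitazone alone left 527 sites and a gain share of 7.28%.

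Gain of c-Jun was most frequent where p300 stood near the top of its list. Among p300 peaks in the top 10% by row without pioglitazone, c-Jun was gained at 138 of 500 sites, 27.6% (23.7 to 31.7). The share was 16.4% (14.1 to 19.0) between 40% and 50% of the list, and 7.47% (4.79 to 11.0) in the last 10%. The loss share ran the other way, with 19.1% (17.6 to 20.7) in the top 10% and 58.1% (48.6 to 67.2) in the last. The 2 shares have different denominators, and in the top 10% they stood for 138 sites with gain and 485 with loss.

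**Figure D1:**
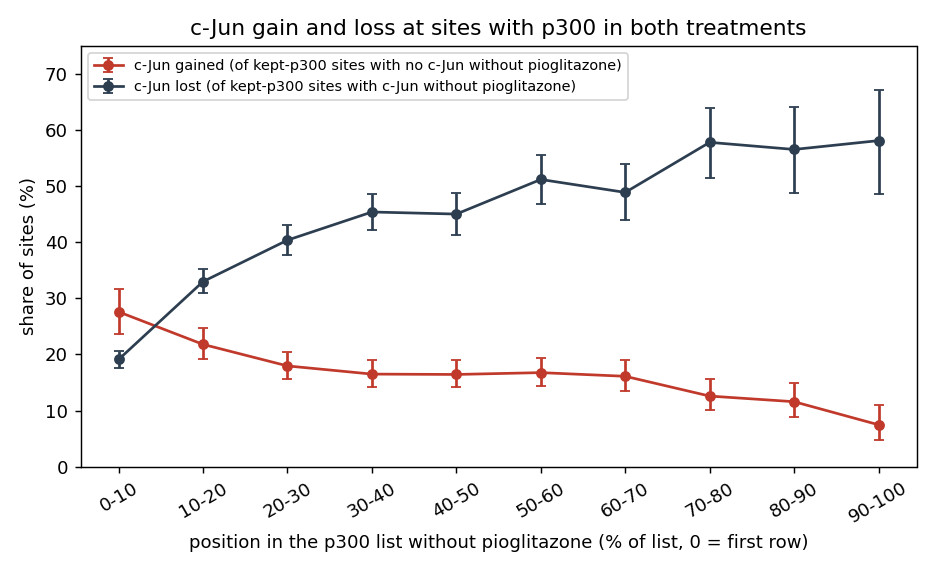
Share of sites with p300 in both treatments that gained c-Jun (red, of those with no c-Jun peak without pioglitazone) or lost it (dark, of those with one), in percent, by position in the p300 list without pioglitazone in 10% steps; bars are exact 95% intervals. The gain share is 27.6% in the first step and 7.47% in the last, while the loss share is 19.1% in the first and 58.1% in the last.

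In the c-Jun list with pioglitazone, the newly listed peaks of the class stood lower than those at sites with both factors in both treatments. Positions of the class in this list ranged from 3.08% to 99.9%, with a median of 55.3% and quartiles at 35.9% and 76.9%. Only 29 of the 1237 were in its top 10%, and 125 in its last 10%. The 5762 sites with both factors in both treatments had a median of 33.3% in the same list, with quartiles at 14.99% and 58.2%. Newly listed c-Jun peaks with no p300 stood lower still, at a median of 71.6%, and those with p300 only with or only without pioglitazone had medians of 59.3% and 66.1%. In the c-Jun list without pioglitazone, the peaks lost from sites that kept p300 had a median of 51.5%.

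The share of c-Jun sites with pioglitazone that were newly listed differed with the p300 state. These values use the contrast of the rule and are a description. Of 6999 c-Jun sites with p300 in both, 17.7% (16.8 to 18.6) were new. The share was 54.2% (50.1 to 58.4) with p300 only with pioglitazone, 41.8% (39.5 to 44.1) with p300 only without it, and 80.0% (78.7 to 81.3) with no p300. Sites with p300 in both treatments had the lowest share in each of the 10 steps of the c-Jun list. In the first step it was 3.03% (2.04 to 4.32), against 13.9% (9.57 to 19.2) with no p300, and in the last step 30.3% (25.9 to 35.0), against 88.8% (86.0 to 91.1). In the first step the intervals for the classes with p300 in 1 treatment, 2.76% to 18.4% and 3.59% to 15.5%, overlapped it.

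**Figure D2:**
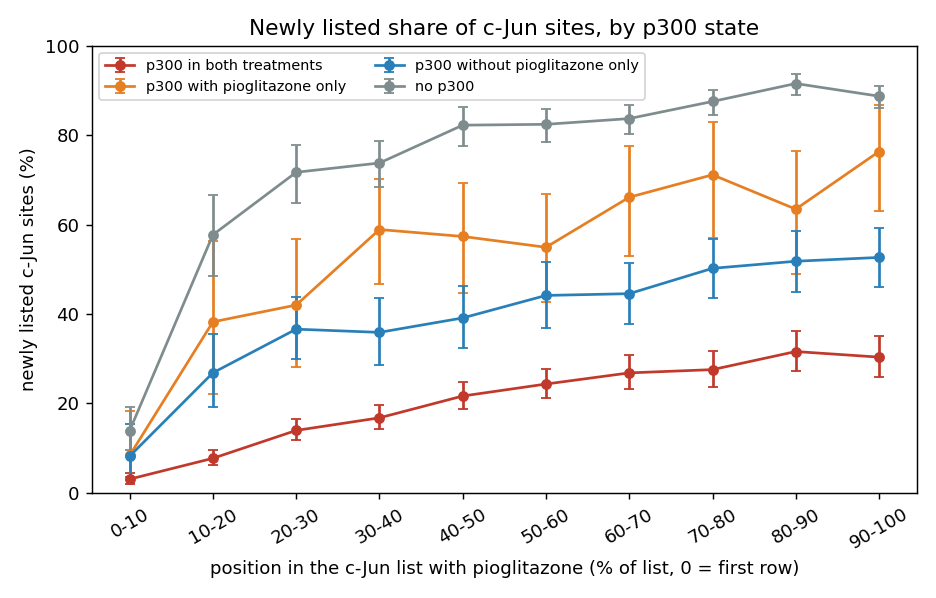
Share of c-Jun sites with pioglitazone that had no c-Jun peak without it, in percent, by position in the c-Jun list with pioglitazone in 10% steps; each line is a p300 state and bars are exact 95% intervals. Sites with p300 in both treatments (red) run from 3.03% to 30.3% and lie under the other lines in every step, and sites with no p300 (grey) run from 13.9% to 88.8%.

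The site at chr19:42092379-42092668 was the first of the class in the c-Jun list with pioglitazone, at row 410 of 13325. Its p300 peak was at row 1280 with pioglitazone and at row 963 without it. The centres of the c-Jun and p300 peaks with pioglitazone lay 13 bp apart, and the nearest c-Jun peak without pioglitazone began 809 bp from the site edge. The next, chr10:69958051-69958342, was at row 464 for c-Jun and at rows 1184 with and 506 without pioglitazone for p300. The third lay on chromosome 18, with c-Jun at row 486 and p300 at rows 291 with and 466 without pioglitazone. All 3 stood in the first 6% of both p300 lists, and each had a c-Jun peak without pioglitazone within 1420 bp of its edge.

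A pair of other leading sites stood higher for p300 in both lists. At chr10:79397060-79397460, c-Jun was at row 505, and p300 was at row 100 with and row 132 without pioglitazone. The c-Jun centre there lay 170 bp from the p300 centre, the widest offset among the first 12 sites. At chr8:129376122-129376383, c-Jun was at row 634, and p300 at row 75 with and row 71 without pioglitazone. The sites at chr19:57014375-57014668 and chr15:101288880-101289149, with c-Jun at rows 716 and 878, had p300 at rows 1022 and 1368 with pioglitazone and at rows 483 and 436 without it. At chr6:122521370-122521634, c-Jun was at row 837 and p300 at row 552 with and row 193 without pioglitazone. p300 stood nearer the top of the list without pioglitazone at these 3 sites.

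The other 4 of the first 12 sites stood lower for p300. They were chr10:110953320-110953687 (c-Jun row 670, p300 at 28.3% with and 13.0% without pioglitazone), chr12:53048433-53048682 (row 729, 30.8% and 28.6%), chr6:120906381-120906705 (row 751, 21.2% and 7.71%) and chr2:37298478-37298735 (row 860, 37.9% and 58.9%). The site on chromosome 2 moved most towards the top of the p300 list among the 12, with a position difference (with minus without pioglitazone) of -21.0 points. The nearest c-Jun peak without pioglitazone lay 149 bp from the edge of the chromosome 10 site and 40956 bp from that of the chromosome 12 site. The leading sites thus included some beside a c-Jun peak listed without pioglitazone and some far from one.

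The first and second rows of both p300 lists belonged to this class. At chr6:113256929-113257259, p300 was at row 1 with and without pioglitazone, and c-Jun was at row 3643 with pioglitazone, 27.3% down its list. The c-Jun centre lay 100 bp from the p300 centre, and the nearest c-Jun peak without pioglitazone was 69104 bp away. At chr7:134920554-134920852, p300 was at row 2 in both treatments and c-Jun at row 2723, with the nearest c-Jun peak without pioglitazone 38353 bp away. At chr13:32586938-32587184, p300 was at row 110 with and row 169 without pioglitazone, and c-Jun at row 3111. Thus p300 and c-Jun positions were far apart at 3 of the 5 sites first for p300, the others being those on chromosomes 8 and 10 named above.

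Among the first 100 p300 peaks with pioglitazone, 4 lay at sites of this class, 75 at sites with both factors in both treatments, 9 at sites that lost c-Jun and 11 at sites with no c-Jun. Among the first 100 without pioglitazone the numbers were 4, 76, 13 and 7. For reference, the class had 1237 sites against 21994 p300 peaks listed with pioglitazone and 31466 without it. The top 10% of the p300 list held 98 of the 1237 (7.92%) with pioglitazone and 138 (11.2%) without it. An even spread would give 10%. The counts of 4 are thus no evidence that the class was enriched among the first p300 peaks. Across the 1237 sites, the p300 median position was 43.9% with pioglitazone (quartiles 23.9% and 66.0%) and 36.7% without it (19.2% and 56.9%). The top 10% of both p300 lists held 82 of the sites. Of these, 13 were also in the c-Jun top 10% and 19 in the last 50% for c-Jun. Spearman's rho across the 1237 sites was 0.34 between p300 and c-Jun positions with pioglitazone, and 0.72 between the p300 positions of the treatments. At the 5762 sites with all peaks these were 0.45 and 0.86. Sites share their libraries and are not replicates.

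**Figure D3:**
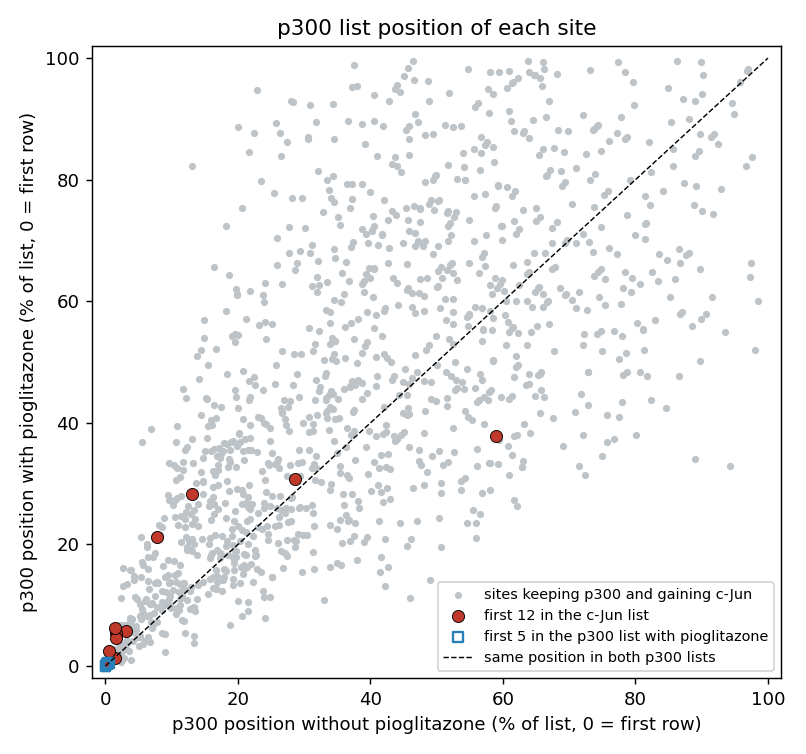
Position of the p300 peak with pioglitazone (vertical axis) against that without it (horizontal axis), in percent of the list with 0 at the first row, for each of the 1237 sites (grey); red points are the first 12 in the c-Jun list with pioglitazone, blue squares the first 5 in the p300 list with pioglitazone, and the dashed line marks the same position in both lists. Most points lie above the line, with a median difference of 4.37 points, and the 5 squares crowd at the lower left corner.

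The shift in p300 position was small at the median and large at single sites. The position with pioglitazone minus that without it had a median of 4.37 points (3.35 to 5.74, an order-statistic interval), that is, later in the list with pioglitazone. The p300 lists differ in length. At equal length, where the class held 1438 sites, the median was -2.39 points. By rank among the 16216 shared sites alone, a setting added after seeing the data, it was -1.93 points (-3.11 to -0.863). The sign thus differed between these settings, and the cause was not tested. The positions were within 10 points of each other at 530 sites and more than 50 points apart at 36.

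The largest moves towards the top with pioglitazone included chr5:92512383-92512837, where p300 stood at 34.1% with and 88.9% without pioglitazone, and chr13:115599924-115600217, at 51.9% and 98.1%. Those at chr5:23293395-23293840 and chr5:30481578-30481928 stood at 38.0% and 42.5% with pioglitazone and at 80.2% and 84.6% without it. The largest of all was on chromosome 18, at 32.9% with and 94.2% without pioglitazone. At these 5 sites the newly listed c-Jun peak stood between 48.9% and 95.7% of its list.

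The largest moves away from the top were at chr3:147501802-147502144, with p300 at 94.8% with and 22.9% without pioglitazone, and chr13:24883224-24883558, at 82.3% and 13.1%. At chr5:53177874-53178155, chr15:26296432-26296694 and chr6:22440890-22441136, p300 stood at 88.7%, 87.7% and 93.0% with pioglitazone and at 20.1%, 22.4% and 28.0% without it. c-Jun was newly listed at 26.1%, 47.9% and 32.7% of its list at these 3 sites. At the first 2 sites c-Jun stood at 72.9% and 88.7%.

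p300 was nearer the top with pioglitazone at 455 of the 1237 sites, 36.8% (34.1 to 39.5), against 27.1% (25.5 to 28.6) at the 3216 sites with kept p300 and lost c-Jun. The difference was 9.73 points (Newcombe 95% interval 6.66 to 12.8) and 7.597 points (4.65 to 10.5, Mantel-Haenszel) within 10% steps of the p300 list without pioglitazone. It was 0.0155 points (-3.11 to 3.14) within steps at equal list length, where the interval includes 0. By rank among shared sites it was 5.47 points (2.32 to 8.61). Against the 6001 sites with p300 in both treatments and no c-Jun, of which 35.7% were nearer the top, the difference was 1.04 points (-1.87 to 4.02). Within steps that difference was 4.90 points (2.11 to 7.69), but -2.87 points (-5.62 to -0.116) at equal length. Neither positive difference was kept at equal list length.

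The median spacing of c-Jun and p300 peaks was slightly larger at these sites than at sites with both factors in both treatments. Sites share their libraries, so this is a description. The c-Jun and p300 centres with pioglitazone lay a median of 53 bp apart (49 to 57) at the 1237 sites and 46 bp (45 to 48) at the 5762 sites with all peaks. They were within 50 bp at 47.8% and 53.8% of the sites. At sites that lost c-Jun, the median between c-Jun and p300 without pioglitazone was 44 bp (42 to 46). The p300 centres of the treatments were a median of 40 bp apart (37 to 43) at the 1237 sites and 34 bp (33 to 35) at the 5762 sites. That spacing was 39 bp (37 to 40) at sites that lost c-Jun and 43 bp (42 to 45) at kept-p300 sites with no c-Jun. These spacings were not compared within steps of list position, which differed between the classes. Every peak of a list has the same width, which differs slightly between lists. Sites of the class were 247 to 682 bp wide, with a median of 314 bp. All but 1 held exactly 3 peaks, and the remaining site held 4.

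A c-Jun peak without pioglitazone lay close to the site, but outside it, in a minority of cases. It was within 1000 bp of the edge at 148 of the 1237 sites, 11.96% (10.2 to 13.9), against 7.83% (7.16 to 8.54) at the 6001 sites with kept p300 and no c-Jun. The difference was 3.46 points (1.55 to 5.38) when taken inside 10% steps of p300 position. Within 5000 bp the shares were 26.4% and 19.9%, with a difference inside steps of 4.05 points (1.48 to 6.62). At the distance up to which sites were joined into domains below (just under 12502 bp), they were 44.0% and 39.5%, and the difference inside steps was 1.895 points (-1.08 to 4.87), whose interval includes 0. Within 50000 bp they were 78.6% and 76.3%, with a difference of 0.421 points (-2.09 to 2.93). The differences at 5000 and 50000 bp were added after seeing the data. The median distance was 16436 bp (14435 to 18708) and 18730 bp (17863 to 19565). At the far end, 265 of the 1237 sites, 21.4%, had no c-Jun peak without pioglitazone within 50 kb.

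**Figure D4:**
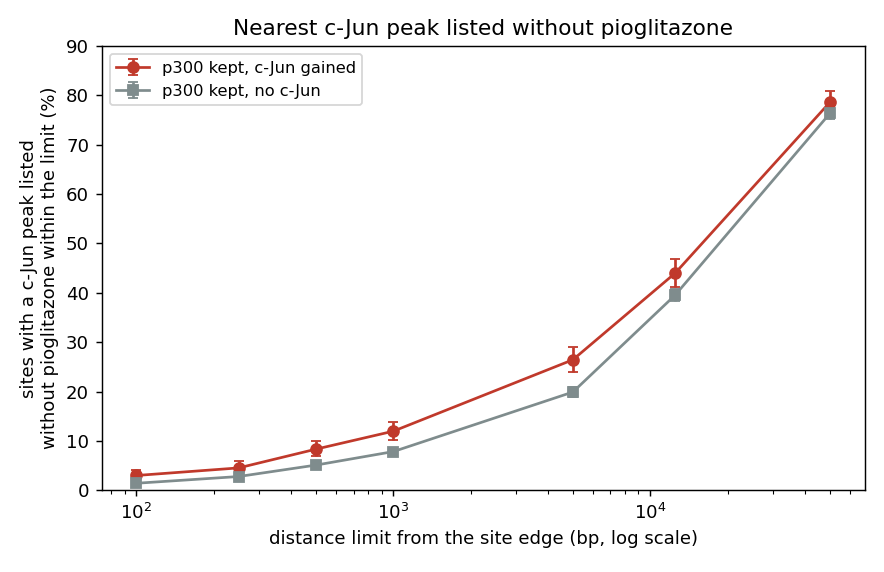
Share of sites, in percent, with a c-Jun peak listed without pioglitazone within a given distance of the site edge (log axis, bp), for sites that kept p300 and gained c-Jun (red) and sites that kept p300 with no c-Jun (grey); bars are exact 95% intervals. The red points lie above the grey at each distance, with 11.96% against 7.83% at 1000 bp and 26.4% against 19.9% at 5000 bp.

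The 1 bp limit split sites with a c-Jun peak without pioglitazone at nearly the same distance. At chr14:79790271-79790646 a c-Jun peak without pioglitazone adjoined the site with 0 bp between them, and at chr9:35294099-35294356, chr9:68235271-68235620, chr15:54058698-54058983 and chr11:53128243-53128534 the gap was 2, 9, 10 and 11 bp. On the other side, the c-Jun peak without pioglitazone overlapped any other peak of the site by at most 2 bp at chr11:61411039-61411666, by 3 bp at chr3:115892358-115892850 and chr3:136246829-136247493, and by 5 bp at chr2:155418031-155418615 and chr10:56676106-56676827. Those sites therefore counted as having c-Jun in both treatments. The c-Jun peaks of the treatments did not overlap each other at 86 of the 5762 sites with all peaks, 1.49% (1.20 to 1.84). Leaving out, after seeing the data, sites within 1 kb of a c-Jun peak without pioglitazone left 1089 of the 1237.

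Most sites of this class were the only one of it in their neighbourhood. Neighbouring merged sites were joined at the distance commonly used to stitch enhancers into super-enhancers, which gave 25289 domains. The closest neighbouring centres left apart were 12502 bp from each other. Sites of the class fell in 1210 domains, alone of their class in 1184, as 2 in 25 and as 3 in 1. Another site of the class was in the same domain for 53 sites, 4.28%, against 5.33% of sites that kept p300 with no c-Jun. That difference was -1.05 points (Newcombe -2.21 to 0.339), and -1.52 points (-2.80 to -0.253) within steps. Within steps it was 0.0204 points (-1.30 to 1.34) against sites with all peaks and -1.23 points (-2.63 to 0.175) against sites that lost c-Jun, and both intervals include 0. Another site with c-Jun newly listed, whatever its p300 state, shared the domain for 213 sites, 17.2%, against 18.1% of sites that kept p300 with no c-Jun. Within steps that difference was -1.94 points (-4.26 to 0.378). It was 1.93 points (-0.476 to 4.33) against sites with all peaks and -3.02 points (-5.56 to -0.494) against sites that lost c-Jun. In 643 of the 1237 cases, 52.0%, the whole domain had no c-Jun peak without pioglitazone. For 362 sites of the class, 29.3% (26.7 to 31.9), the domain held no other site, so the rule fixed this outcome. The median domain of a site of the class held 2 sites. No share for other classes is given beside the 52.0%.

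A site of the class more often shared its domain with a site that lost c-Jun, but less clearly so without lost sites within 1 kb. This held for 432 of the 1237 sites, 34.9%, against 28.5% of sites that kept p300 with no c-Jun, a difference of 6.39 points (Newcombe 3.54 to 9.32) and of 5.02 points (2.15 to 7.90) within steps. Counting only lost c-Jun sites at least 1 kb away, the shares were 28.1% and 24.96%, and the difference within steps was 1.84 points (-0.875 to 4.56), whose interval includes 0. With all lost sites counted, the difference within steps was 11.4 points (8.44 to 14.3) against sites with all peaks (27.7%). Against sites that lost c-Jun (29.7%) it was 6.24 points (3.16 to 9.31). No value with the 1 kb limit is given for these 2 classes. The domain also held another site with c-Jun in both treatments for 26.2% of the class. Minus sites that kept p300 with no c-Jun (27.0%), the difference within steps was -3.42 points (-6.03 to -0.801). It was 4.91 points (2.16 to 7.66) against sites with all peaks and 1.28 points (-1.55 to 4.10) against sites that lost c-Jun, so its sign depended on the class compared.

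The domain with 3 sites of the class, chr12:106189603-106251573, held 7 p300 and 4 c-Jun peaks with pioglitazone, and 9 p300 and 5 c-Jun peaks without it. Its 11 sites included 4 that lost c-Jun. In chr10:94964323-95006911, with 2 sites of the class, c-Jun peaks numbered 4 with and 1 without pioglitazone, and p300 peaks 4 in both. In chr10:128216508-128228015, both sites of the domain belonged to the class, with 2 p300 peaks in each treatment, 2 c-Jun peaks with pioglitazone and 0 without it. In chr17:56165817-56179837, c-Jun peaks numbered 3 with and 0 without pioglitazone, and p300 peaks 2 in both. In the larger domain chr6:135242443-135338083, c-Jun peaks numbered 6 with and 5 without pioglitazone, while p300 peaks numbered 9 with and 15 without it. In chr11:87969049-88029144, c-Jun peaks numbered 5 with and 3 without pioglitazone, and p300 peaks 8 in both. Of the 26 domains with at least 2 sites of the class, 7 had no c-Jun peak without pioglitazone. No count for other domains is given beside it.

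The class was spread over all 19 autosomes and the X. Among sites that kept p300 and had no c-Jun without pioglitazone, the share gaining c-Jun was 10.3% (7.24 to 14.1) on chromosome 4, 34 of 330 sites, and 21.6% (16.6 to 27.3) on chromosome 12, 52 of 241. The chromosome 4 share minus that of all others was -7.11 points (Newcombe -10.1 to -3.26), and -5.78 points (-9.06 to -2.50) within steps. It was the only one of 20 chromosomes whose unstratified interval did not include 0, and the intervals are not adjusted for the 20 comparisons. Within steps, the intervals for chromosome 12, at 5.36 points (0.259 to 10.5), and chromosome 19, at -4.54 points (-8.93 to -0.160), also did not include 0. On the X, 18.3% (12.7 to 25.1) of 164 sites gained c-Jun, a difference of 1.23 points (-4.01 to 7.91), and 48.5% (40.7 to 56.4) of 167 lost it. The loss share over all chromosomes was 35.8%. Loss on the X was not compared within steps of p300 position, with which the loss share changed (above).

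**Figure D5:**
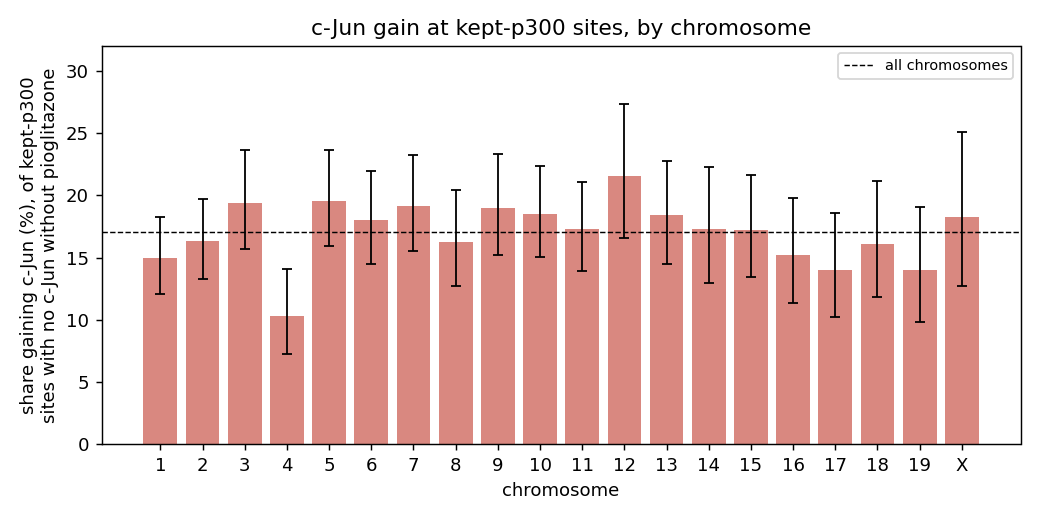
Share of sites with p300 in both treatments and no c-Jun without pioglitazone at which c-Jun was newly listed with pioglitazone, in percent, by chromosome; bars start at 0, error bars are exact 95% intervals and the dashed line is the share over all chromosomes, 17.1%. Chromosome 4, at 10.3%, lies farthest under the line, and chromosome 12, at 21.6%, farthest above it.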

How the data were processed

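ChIP-seq peaks of p300 and c-Jun came from 4 libraries of MS5 cells. The submitters' processing notes name mm9, Bowtie2 2.3.4.3, SAMtools 1.9 and HOMER without a version, and state no role, so per the submitters' processing notes alone the calling settings and the use of the input are unknown here. The authors deposited 1 peak list per library, with start, end and a score that is 1 in every row. The GRCm38 gene table was not applied, since 42 to 103 chromosome 7 peaks of each list exceed its final gene there. The planned gene, promoter and motif comparisons were not run.

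Sites were merged in Python (3.11.15, numpy 2.4.6, pandas 2.3.3, scipy 1.17.1); bedtools 2.31.1 gave the same 44718 sites and 1237 members. The functions were tested on simulated data. A site's position in a list is its first row, in percent of the list. Differences of shares carry Newcombe intervals, or Mantel-Haenszel intervals within 10% steps. Named sites were the first 12 in the c-Jun list with pioglitazone, the first 5 in the p300 list with pioglitazone, the 5 largest moves each way, the 5 on each side of the 1 bp limit, and the 6 domains with most members, ties going to the better c-Jun position. Chromosome 18 sites are given without coordinates. The members and these choices were made with earlier results of these data known. Overlap rules, list lengths and distances were varied.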

Additional observations from a re-analysis of the deposited data

How the results depend on the processing

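No paired analysis was possible because each group is 1 library. For the same reason no library could be left out. Limiting all lists to their upper 50% gave 574 sites, a gain share of 13.4% and a loss share inside the interval of the whole lists. Limiting only the c-Jun list with pioglitazone gave 527 sites, with a gain share of 7.28% and a loss share of 56.3%; fewer rows can gain by construction. Equal list lengths gave gain and loss shares of 21.4% and 31.7%. They gave median positions of 57.9% for c-Jun with pioglitazone and 46.3% for p300 without it, a p300 shift of -2.39 points, and differences in the share nearer the top of 0.0155 points against sites that lost c-Jun and -2.87 points against sites with no c-Jun. By rank among shared sites, an alternative chosen after seeing the data, the shift was -1.93 points and the second difference 2.06 points (-0.858 to 4.98). The cause was not tested. Widening peaks by 500 bp gave a gain share of 18.3% and a loss share of 34.6%. Overlap of 50% of both peaks gave a loss share of 36.9%, and centres within 100 bp gave 36.9% too. Centres within 100 bp also gave median positions of 53.2% for c-Jun, 39.1% for p300 with pioglitazone and 31.6% for p300 without it, a spacing of 42 bp and a width of 300 bp. With domains of 25 kb, 10.3% of sites shared a domain with another of the class. Without sites near a c-Jun peak listed without pioglitazone (within 1 kb), the excess of lost c-Jun sites in the domain was 1.74 points (-1.16 to 4.63), and 1.84 points when only lost sites farther away counted, a setting also chosen after seeing the data. The other 29 alternative values stayed within the interval, within 1.5 times the count, or on the same side of 0. Depth is unknown, and a peak missing from a list may be under that list's threshold. Other settings for promoter shares, motifs and gene lists were not run, since no mm9 sequence or annotation was used.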
